A study of Sus scrofa with 12 samples.

Results

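Genes of 3 families of DNA-binding transcription factors, the Krüppel-like factors (KLF), the ETS factors and the nuclear receptors, were examined in the messenger RNA of porcine mesenchymal stem cells (MSCs) and of the extracellular vesicles (EVs) that these cells released, together with coregulators and a small group of GATA and RUNX repressors. Members were chosen by gene symbol, as every KLF, ETV, ELK, ELF, ETS, NR, RXR, RAR, NCOA and NCOR gene with a family number or letter, plus NRIP1, LCOR, TRPS1, RUNX1T1 and CBFA2T2. The most-read entry stood for a symbol with several entries. This gave 71 genes of the 13363 symbols in the mRNA table, with 17 KLF genes, 15 ETS genes, 26 nuclear receptors, 10 coregulators and 3 GATA and RUNX repressors. MSCs were grown at passage 3 from the abdominal fat of 3 female domestic pigs aged 3 months, in medium with platelet lysate, and EVs were isolated from their culture supernatants by ultracentrifugation. No animal or cell was given a further treatment, so the 2 groups of the comparison differ in being cells or the vesicles collected from them. Each group held 3 mRNA libraries, 1 from each pig, and the MSC and EV libraries of a pig share its identity in the labels.

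KLF proteins bind GC-rich promoter sequences through zinc fingers, and several of them govern the choice between proliferation and adipocyte differentiation. ETS proteins bind sequences with a GGA core, and many are switched by growth factor signalling through MAP kinases. Nuclear receptors are transcription factors that are controlled by small lipophilic ligands such as retinoic acid, oxysterols and glucocorticoids, and they act by exchanging corepressors of the NCOR type for coactivators of the NCOA type. Whether the mRNA of such regulators is present in EVs at another level than in the parent cells was the question of the comparison.

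The MSC libraries held 11332330 to 12276855 reads on gene entries (median 11749971) and the EV libraries 10429085 to 12151384 (median 11608180). The members took 0.326%, 0.331% and 0.327% of these reads in MSCs of pigs 1, 2 and 3, and 0.398%, 0.405% and 0.338% in EVs. Each share had a 95% Wilson interval within 0.322% to 0.334% in MSCs and within 0.335% to 0.409% in EVs, which covers counting error only. Of the MSC markers, CD44 had 3716 to 10023 reads and NT5E 1238 to 1411 reads in MSC libraries, ENG had 44 to 75, and THY1 was listed at 0 with an entry of 49577 reads over the same span. Summed over its list, the leukocyte marker level was 48.7 to 51.1 CPM (read counts scaled to the library size after TMM normalization) in MSCs and 45.2 to 63.7 in EVs, most of it CD14, with CD163 at 0. Endothelial markers summed to 9.67 to 16.7 CPM in MSCs and 1.64 to 6.67 in EVs with VWF at 0, and adipocyte markers to 0.0 to 0.232 and 0.422 to 0.708. Platelet markers summed to 1.87 to 3.16 CPM in MSCs and 0.760 to 2.83 in EVs with PPBP and ITGA2B at 0. The platelet value is that of GP9 alone, since 3 of the 5 genes listed had an entry and 1 had reads. Pericyte and smooth muscle markers summed to 68.2 to 141 CPM in MSCs and 17.9 to 95.9 in EVs with RGS5 and DES at 0. By a fold over 2 with an unadjusted p-value under 0.05, 1 gene of this list and 1 of the endothelial list were lower in EVs. ACTA2, a smooth muscle actin, had 359, 286 and 431 MSC reads against 13, 5 and 39 EV reads (log2 fold change -4.10, edgeR adjusted p = 0.206, and 0.0116 with pig blocked), and PECAM1 had 215, 111 and 114 MSC reads against 78, 20 and 31 EV reads (log2 fold change -1.71, edgeR adjusted p = 0.249). VWF, PPBP, ITGA2B, RGS5, DES and PLIN1, an adipocyte marker also at 0, each have another entry over at least 0.9 of their span, as THY1 does. The entry of CD163 is only 101 bases long. A value of 0 was not read as absence for these markers. The part of these marker levels in the values of the regulators was not tested.

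Of the 71 members, 56 had reads and 43 had enough of them for the test of EVs against MSCs, which was edgeR's quasi-likelihood test over all 12392 entries that passed its filter on low counts. Those tested were 8 KLF genes, 10 ETS genes, 14 nuclear receptors, 8 coregulators and the 3 GATA and RUNX repressors. By the thresholds that the study used, a fold change over 2 and an unadjusted p-value under 0.05, 7 members were higher in EVs and 0 were lower. The 7 were ELK4, ETV1, KLF7, KLF9, NR1D2, NRIP1 and TRPS1. They were 16.3% of the members tested, against 5.55% of all entries tested that were higher and 3.57% that were lower. The study reports ELK4, KLF7, NRIP1 and TRPS1 as enriched in EVs from these same libraries, and NRIP1 and TRPS1 are members by name. The share among members is thus not independent of the choice of members. After Benjamini-Hochberg adjustment over all entries, 0 members had an adjusted p-value under 0.05 in edgeR, where the lowest was 0.206. At an unadjusted p-value under 0.05, irrespective of fold change, there were 9 members, and the same adjusted threshold in edgeR was passed by 0.0% of all entries in either direction although 1978 entries had an unadjusted p-value under 0.05. With pig used as a block in the same test, the unadjusted thresholds gave 9 members (adding LCOR and RUNX1T1), against 8.01% of all entries that were higher and 5.17% that were lower in that fit, and TRPS1 alone passed the adjusted threshold, against 0.492% of all entries higher and 0.605% lower. DESeq2 gave 6 members higher with a fold over 2 and an adjusted p-value under 0.05 (ELK4, ETV1, KLF7, KLF9, NRIP1 and TRPS1) and 0 lower, against 2.04% of all entries that were higher and 1.5% that were lower by the same rule.

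The direction of change was uneven among the families. The log2 fold change of EVs over MSCs was above 0 in 31 of the 43 members tested (49.1% of all entries tested), with a median of 0.30 and a range from -0.69 to 2.15, while the median of all entries tested was -0.02. The median was 0.61 in KLF genes, with 7 above 0 and 1 below, and 0.58 in coregulators, with 7 above and 1 below. It was 0.25 in ETS genes, with 7 above and 3 below, and 0.06 in nuclear receptors, which were split into 7 above and 7 below. All 3 GATA and RUNX repressors were above 0, with a median of 1.06. This group was chosen by name. The study reports TRPS1 and RUNX1T1 as enriched in EVs from the same libraries, so the direction of the group was not an independent result. All 3 EV libraries exceeded all 3 MSC libraries in 13 members, against 14.3% of all entries tested, and all 3 EV libraries were under all 3 MSC libraries in 2 members, RARG and NR2F6, against 13.6%. Within pigs, 17 members were higher in EVs of all 3 pigs, against 22.6% of all entries, and 3 were lower in all 3 (NR1H3, NR2F6 and RARG), against 24.2%. By pig, the median log2 difference of the members was 0.10 in pig 1, 0.54 in pig 2 and 0.60 in pig 3. Since values are shares of a library, and the libraries are bulk RNA, a vesicle or cell class that is less frequent cannot be told apart from one that holds less of the RNA.

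**Figure D1:**
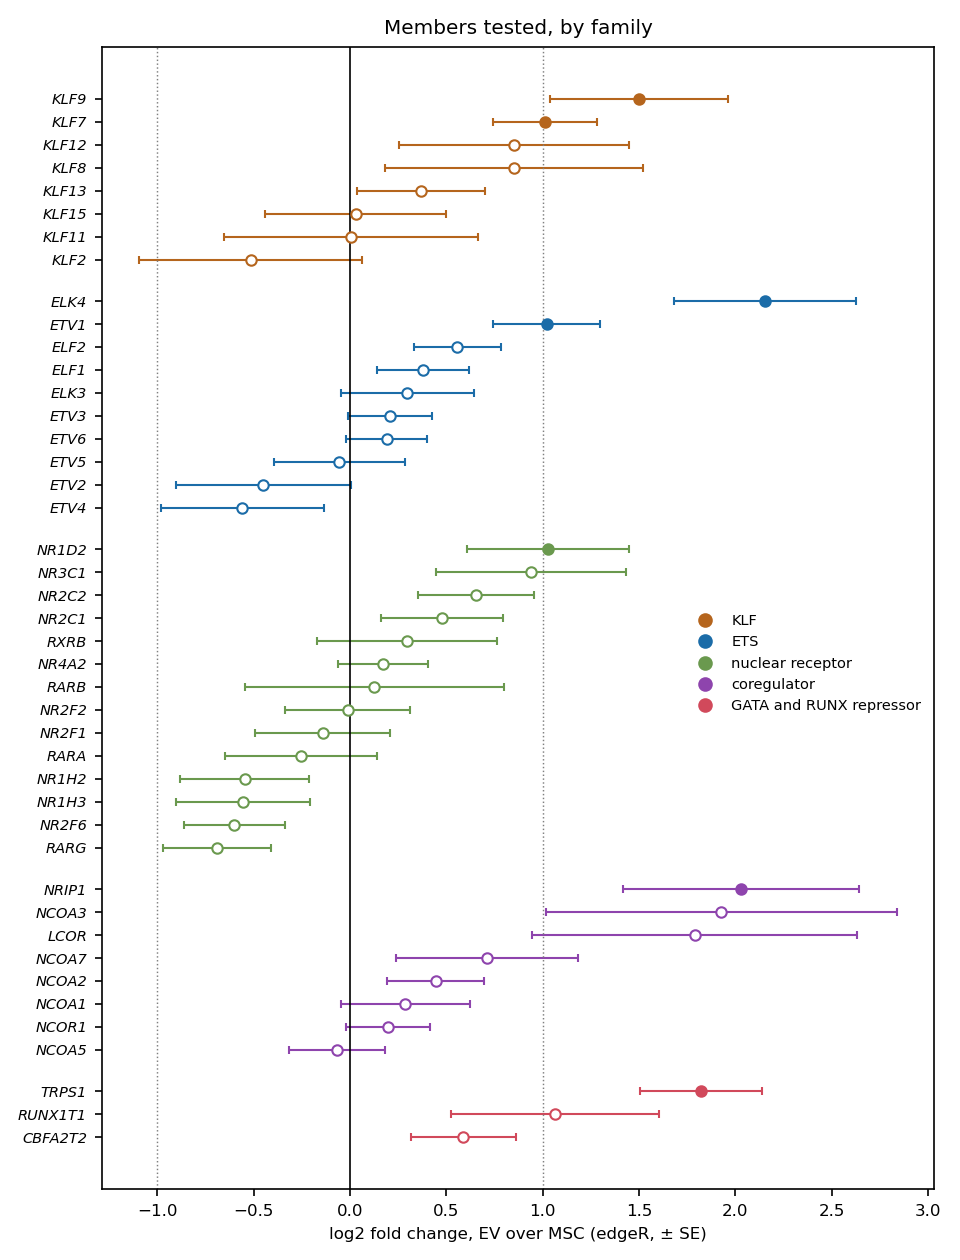
Log2 fold change of EVs over MSCs (x axis, edgeR estimate ± SE, 3 libraries a group) for the 43 members tested, grouped and coloured by family, with filled points for the 7 members that passed a fold of 2 with an unadjusted p-value under 0.05. Dotted lines mark a 2-fold change. The filled points are all to the right, from 1.01 for KLF7 to 2.15 for ELK4, and nuclear receptors lie on both sides of 0.

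Libraries of the same group did not contribute evenly. MSC library 2 was the lowest of the 6 libraries in 22 of the 43 members, 51.2% of them against 33.6% of all entries tested, and it was the highest of the 6 in 10, against 29.2% of all entries tested, and the median difference of this library from the other MSC libraries was -0.12 on the log2 scale in members and -0.08 in all entries. In coregulators that difference was -1.11 and in the GATA and RUNX repressors -0.44, whereas it was 0.14 in nuclear receptors. Without MSC library 2, 6 members were higher by the study thresholds, against 568 of 12796 entries, and the median over all members was 0.34. Of the 7 members above, ELK4, KLF9, NRIP1 and TRPS1 were among these 6, ETV1, KLF7 and NR1D2 were not, and KLF5 and KLF11 were added. KLF5 was not among the 43 members of the main test. It passed the filter of the fit with fewer libraries only through its EV libraries, which favours a fold change above 0. EV library 3 had more influence on the counts, since without it 4 members were higher (ELK4, KLF9, NRIP1 and TRPS1) and 1 was lower (KLF2), against 532 entries higher and 607 lower of 12785. The median length of the members tested was 3616 bases and that of all entries tested 2020, and when the trend of gene length was removed from each library the same 4 members were higher. The part of gene length in the fold changes was not tested further.

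Among the GATA and RUNX repressors, TRPS1 (ENSSSCG00000006018, chromosome 4 from 24703617 to 24892807 in the susScr3 build of the pig genome) encodes a zinc finger protein that represses GATA-regulated genes and takes part in cartilage and bone development. TMM-normalized CPM were 6.89, 5.26 and 7.38 in MSCs of pigs 1, 2 and 3, and 18.5, 20.6 and 30.0 in EVs of the same pigs. All EV libraries were above all MSC libraries, and the lowest EV value was more than 2 times the highest MSC value. In the fit over all entries it had a log2 fold change of 1.82 (SE 0.32, edgeR adjusted p = 0.206), ranging from 1.58 to 1.96 when each library was left out in turn, and the smallest adjusted p of any member, 0.0416, when pig was used as a block.

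RUNX1T1 and CBFA2T2 encode corepressors of the ETO family, which recruit NCOR complexes to DNA-bound factors, and RUNX1T1 is known from its fusion with RUNX1 in leukaemia. RUNX1T1 (ENSSSCG00000006115, chromosome 4 from 48110058 to 48171842) had 9.68, 2.97 and 14.3 CPM in MSCs and 17.6, 14.4 and 24.6 CPM in EVs of the 3 pigs. The EV values lay just above the MSC values, since 14.4 CPM in EVs of pig 2 and 14.3 CPM in MSCs of pig 3 were nearly equal. EVs were higher in all 3 pigs, a log2 fold change of 1.06 (SE 0.54, edgeR adjusted p = 0.355), which became 1.27 past the study thresholds once pig was blocked (edgeR adjusted p = 0.137). CBFA2T2 (ENSSSCG00000027410, chromosome 17 from 41984968 to 42071429) measured 22.1, 20.8 and 22.8 CPM in MSCs against 23.4, 39.7 and 35.6 CPM in EVs, a log2 fold change of 0.59 (SE 0.27, edgeR adjusted p = 0.330). MSC values of CBFA2T2 were close together, and the EV value of pig 1 was close to them while those of pigs 2 and 3 were higher.

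In the ETS family, ELK4 and ETV1 were higher in EVs by the study thresholds. ELK4 (ENSSSCG00000025182, chromosome 9 from 72566746 to 72581074) is a ternary complex factor, which binds with serum response factor (SRF) at immediate early genes and is switched on by MAP kinases. The MSC libraries gave 6.51, 1.91 and 3.56 CPM, and the EV libraries gave 13.8, 20.9 and 18.9 CPM, so the groups did not overlap. This was the largest fold change of the members tested, 2.15 on the log2 scale (SE 0.47, edgeR adjusted p = 0.212, and 0.0601 with pig blocked). It lay between 1.82 and 2.69 when each library was left out.

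ETV1 (ENSSSCG00000024591, chromosome 9 from 91500795 to 91602325), a PEA3 type ETS activator, measured 109, 127 and 192 CPM in MSCs and 276, 287 and 306 CPM in EVs. The 3 EV libraries were tightly grouped, at 290 ± 14.9 CPM (SD, n = 3), against a wider spread of 143 ± 43.8 CPM in MSCs (SD, n = 3), a log2 fold change of 1.02 (SE 0.28, edgeR adjusted p = 0.223). It was close to the 2-fold threshold and ranged from 0.85 to 1.29 when each library was left out.

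The relatives of ETV1 of the PEA3 type had log2 fold changes below 0 that did not pass the test. ETV4 (ENSSSCG00000017379, chromosome 12 from 19893847 to 19910598) measured 436, 1003 and 563 CPM in MSCs against 573, 519 and 266 CPM in EVs, for a log2 fold change of -0.56 (SE 0.42, edgeR adjusted p = 0.499), while ETV5 had a log2 fold change of -0.06. The MSC and EV values of ETV4 overlapped, with the highest value in MSCs of pig 2 and the lowest in EVs of pig 3. ELK3 (ENSSSCG00000023803, chromosome 5 from 91504838 to 91536271), a ternary complex factor like ELK4 that acts mostly as a repressor, measured 426, 496 and 378 CPM in MSCs and 361, 447 and 789 CPM in EVs. The groups overlapped, for a log2 fold change of 0.30 (SE 0.34, edgeR adjusted p = 0.659), which turned to -0.10 without EV library 3. ELF2, an E74-like activator, had 55.4, 52.3 and 64.5 CPM in MSCs against 70.0, 85.7 and 97.7 CPM in EVs, without overlap, a log2 fold change of 0.56 (edgeR unadjusted p = 0.0411, adjusted p = 0.296), under the 2-fold threshold. ETV6, an ETS repressor, had non-overlapping groups at 169 to 185 CPM in MSCs and 190 to 217 CPM in EVs.

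In the KLF family, KLF9 and KLF7 were higher in EVs by the study thresholds. KLF9 (ENSSSCG00000021646, chromosome 1 from 250030153 to 250057245) is a glucocorticoid and thyroid hormone responsive gene. The MSC libraries gave 122, 50.3 and 87.5 CPM and the EV libraries 268, 345 and 122 CPM, in pigs 1, 2 and 3. EVs of pig 3 were level with MSCs of pig 1, whereas EVs of pigs 1 and 2 were more than 2 times higher than any MSC library. Across the group, the mean was 86.5 ± 35.6 CPM in MSCs and 245 ± 113 CPM in EVs (SD, n = 3 each). EVs thus had a log2 fold change of 1.50 over MSCs (SE 0.46, edgeR adjusted p = 0.245), ranging from 1.19 to 1.83 when each library was left out.

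KLF7 (ENSSSCG00000029998, chromosome 15 from 121838760 to 121892429), which is known to restrain adipocyte differentiation, had 22.8, 16.1 and 21.2 CPM in MSCs against 32.6, 39.4 and 49.4 CPM in EVs. The groups did not overlap, and KLF7 was just past the 2-fold threshold at a log2 fold change of 1.01 (SE 0.27, edgeR adjusted p = 0.222). KLF13 (ENSSSCG00000026006, chromosome 1 from 159396562 to 159485685), a close relative of KLF9, measured 189, 293 and 152 CPM in MSCs and 203, 267 and 347 CPM in EVs, overlapping groups with a log2 fold change of 0.37 (SE 0.33, edgeR adjusted p = 0.571). KLF2 (chromosome 2 from 60904004 to 60904628), a regulator of endothelial quiescence that also restrains adipocyte differentiation, was the only KLF gene tested with a log2 fold change below 0. The MSC libraries gave 13.6, 23.8 and 27.3 CPM against 6.59, 9.37 and 29.4 CPM in EVs, a log2 fold change of -0.52 (SE 0.58, edgeR adjusted p = 0.647). EVs of pigs 1 and 2 were below every MSC library and EVs of pig 3 were above them, and without EV library 3 the log2 fold change was -1.44, past the study thresholds.

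Of the remaining KLF genes tested, KLF15 had a log2 fold change of 0.03. KLF12 had 3.25, 0.670 and 3.56 CPM in MSCs and 3.46, 4.69 and 5.46 CPM in EVs (log2 fold change 0.85), and KLF8, also with a log2 fold change of 0.85, had 2.32, 0.287 and 1.36 CPM in MSCs and 2.11, 2.03 and 3.14 CPM in EVs. MSC library 2 was the lowest for both. KLF11 went the other way in that library, with 10.8, 46.4 and 7.46 CPM in MSCs and 21.4, 27.2 and 16.1 CPM in EVs. Its log2 fold change was 0.00 with all libraries and 1.24 without MSC library 2.

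Among the nuclear receptors, NR1D2 was higher in EVs by the study thresholds. NR1D2 (ENSSSCG00000027017, chromosome 13 from 12197567 to 12222739) encodes REV-ERB beta, a heme-binding repressor of the circadian clock. Its MSC libraries measured 127, 87.6 and 221 CPM and its EV libraries 184, 309 and 396 CPM, so the groups overlapped although the EV value was higher in each pig. This gave a log2 fold change of 1.03 (SE 0.42, edgeR adjusted p = 0.298), ranging from 0.76 to 1.46 when each library was left out.

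RARG (ENSSSCG00000000258, chromosome 5 from 18846917 to 18857897), the gamma receptor for retinoic acid, had 261, 314 and 303 CPM in MSCs against 225, 126 and 194 CPM in EVs. The groups did not overlap, and the gap was widest in pig 2. This was a log2 fold change of -0.69 (SE 0.28, edgeR unadjusted p = 0.0406, adjusted p = 0.296), short of the 2-fold threshold. NR2F6, an orphan receptor of the COUP-TF type, was likewise without overlap, measured at 40.8, 68.1 and 47.7 CPM in MSCs against 35.0, 37.1 and 31.2 CPM in EVs, for a log2 fold change of -0.60 (edgeR adjusted p = 0.316). Of the other retinoic acid receptors, RARA had a log2 fold change of -0.25 with 172 CPM in MSC library 2 and 63.4 to 98.8 CPM in the other libraries, and RARB had a log2 fold change of 0.13. Whether the receptors differ in response was not tested.

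NR1H2 and NR1H3 encode the liver X receptors (LXR), which sense oxysterols and switch on cholesterol efflux. NR1H2 (ENSSSCG00000003211, chromosome 6 from 51087295 to 51094351) measured 154, 313 and 166 CPM in MSCs and 170, 146 and 117 CPM in EVs, groups that overlapped around a high value in MSC library 2, for a log2 fold change of -0.55 (SE 0.33, edgeR adjusted p = 0.415). An entry named GALNS, with 14423 reads, spans NR1H2 on the other strand, and since no source used here gives the strand setting of the counting, reads of the 2 genes cannot be told apart. NR1H3 had a log2 fold change of -0.55 and was lower in EVs of 3 of 3 pigs. NR2C1 and NR2C2, the testicular orphan receptors, were both without overlap in the opposite direction, NR2C2 at 46.2, 23.0 and 35.4 CPM in MSCs and 47.4, 63.6 and 53.7 CPM in EVs. NR3C1, the glucocorticoid receptor, had 10.6, 3.35 and 5.77 CPM in MSCs and 7.68, 14.2 and 16.1 CPM in EVs, with overlap and a log2 fold change of 0.94 (adjusted p = 0.364 from edgeR).

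**Figure D2:**
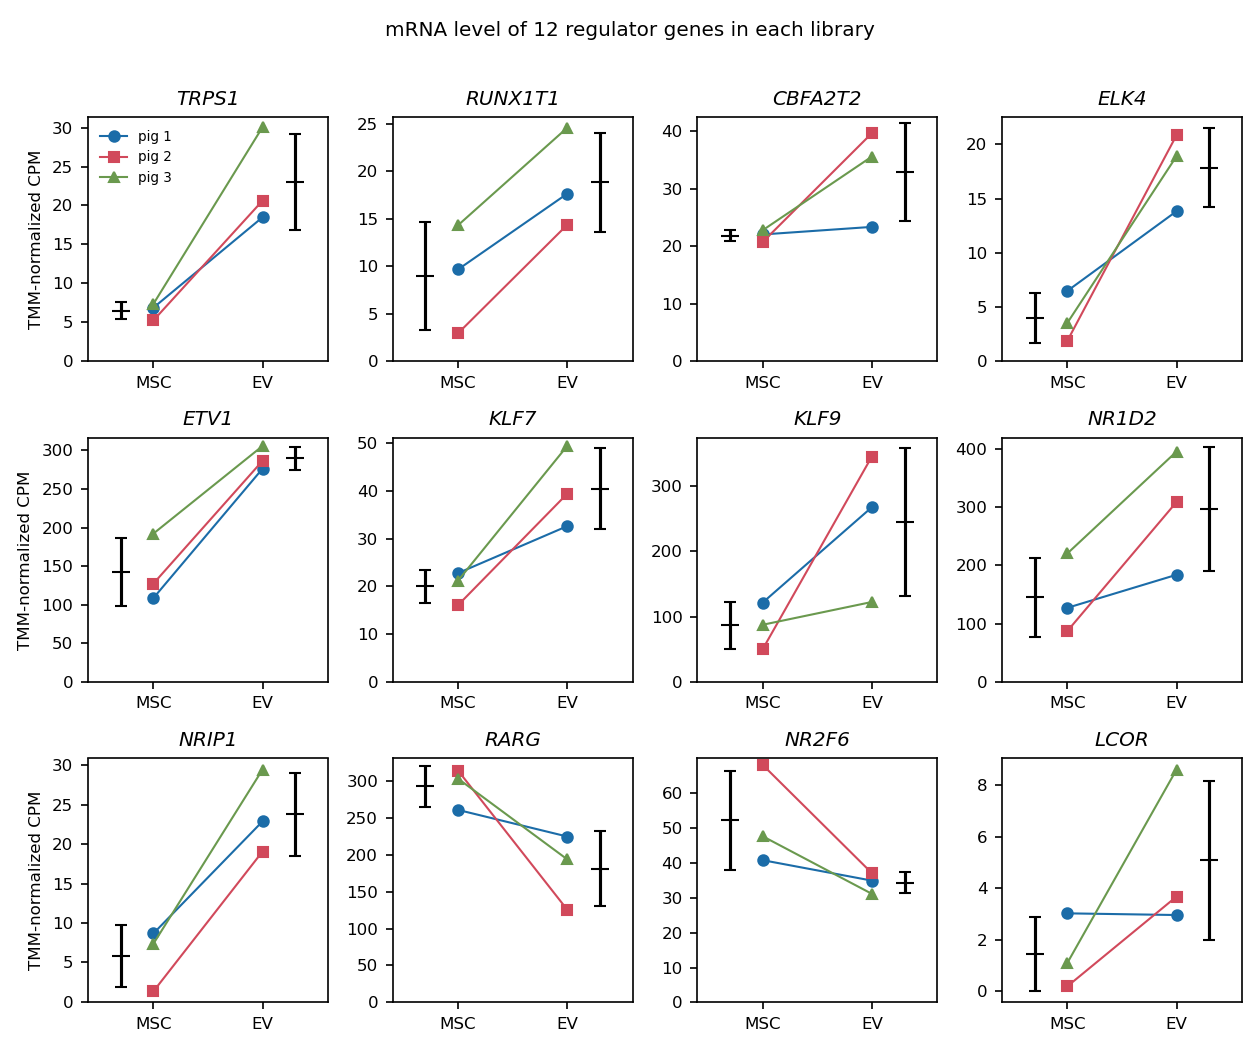
TMM-normalized CPM (y axis, linear) of 12 regulator genes in each library, with MSCs and EVs of the same pig joined by a line and the mean ± SD of 3 libraries as black bars at the sides. TRPS1, ELK4, ETV1, KLF7 and NRIP1 were higher in EVs with no overlap of the groups, NR1D2 and LCOR overlapped, and RARG and NR2F6 were lower in EVs in each pig.

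Coregulators do not bind the DNA sites of the receptors themselves and are recruited by the receptors. NRIP1 (ENSSSCG00000021038, chromosome 13 from 190062821 to 190066291), also known as RIP140, is a corepressor of nuclear receptors that restrains energy expenditure in adipocytes. Its MSC libraries measured 8.67, 1.34 and 7.38 CPM, the lowest by far in pig 2, against 22.9, 19.1 and 29.4 CPM in EVs, without overlap. This gave a log2 fold change of 2.03 (SE 0.61, edgeR adjusted p = 0.243, and 0.0539 with pig blocked), which became 1.57 without MSC library 2, still past the study thresholds.

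LCOR, a ligand-dependent corepressor, had low values throughout, 3.02, 0.191 and 1.10 CPM in MSCs against 2.95, 3.67 and 8.60 CPM in EVs, alike in pig 1 but not in pigs 2 and 3, for a log2 fold change of 1.79 (SE 0.84, edgeR adjusted p = 0.335). NCOA3, a p160 coactivator, was listed at 0 in MSC library 2 and had at most 0.774 CPM in MSCs and 2.34 CPM in EVs, with an estimated log2 fold change of 1.93 (adjusted p = 0.335 from edgeR). This gene passed the filter on low counts only through its EV libraries, which favours a fold change above 0, and it is part of the coregulator median. NCOA2, another p160 coactivator, had 11.7 to 12.3 CPM in MSCs and 14.9 to 18.2 CPM in EVs, without overlap.

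The coregulators with the highest levels had the smallest differences. NCOR1 (ENSSSCG00000018039, chromosome 12 from 62387143 to 62538681), the corepressor that bridges receptors to histone deacetylase 3, measured 148, 138 and 125 CPM in MSCs and 154, 178 and 139 CPM in EVs, a log2 fold change of 0.19 (edgeR adjusted p = 0.645). NCOA5 (ENSSSCG00000007438, chromosome 17 from 53876961 to 53897379) measured 68.8, 105 and 70.0 CPM in MSCs and 71.3, 86.2 and 74.6 CPM in EVs, a log2 fold change of -0.07 (edgeR adjusted p = 0.899). An entry named DBNDD2, with 2126 reads, spans NCOA5 and NCOA3 on the other strand, and the limit given for NR1H2 holds for them too. Both had overlapping groups, and the sign of NCOR1 turned to -0.13 with the length trend removed and that of NCOA5 to 0.16 without MSC library 2.

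For comparison between genes, levels were taken per length, as the deposited RPKM. Only members with reads were placed in order. ETV4 was the highest ETS gene in MSCs, at 74.8 ± 25.6 RPKM (SD, n = 3), and its libraries did not overlap those of ELK3, at 31.4 ± 3.11. In EVs their libraries overlapped, at 54.4 ± 23.8 RPKM for ETV4 and 38.2 ± 11.6 for ELK3 (SD, n = 3 each). ETV1 was the fourth ETS gene in MSCs and the third in EVs, at 12.2 ± 0.839 RPKM (SD, n = 3), where it stood apart from the next, ETV6. ELK4, in spite of its fold change, stayed low, at 0.638 ± 0.420 RPKM in MSCs and 2.79 ± 0.615 RPKM in EVs (SD, n = 3 each).

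The order of the KLF genes with reads differed between the groups. KLF genes without reads, such as KLF3 and KLF6, could not be placed in it. KLF13 was the highest in MSCs, at 10.2 ± 2.67 RPKM, followed by KLF2 at 9.13 ± 2.74 and KLF9 at 5.31 ± 2.62 (SD, n = 3 each), and neighbours in this order overlapped. KLF9 was the highest in EVs, at 15.4 ± 8.10 RPKM, followed by KLF13 at 13.3 ± 2.30 (SD, n = 3 each), but again the libraries overlapped. RARG, at 26.6 ± 1.28 RPKM, was the highest nuclear receptor in MSCs, with overlap with NR1H2. NRIP1 was the fourth of the 8 coregulators with reads in both groups, at 0.466 RPKM in MSCs and 1.84 RPKM in EVs on average, and NCOR1, the highest, had 5.97 and 6.98. Summed over the family, KLF genes had 29.4 to 30.9 RPKM in MSCs and 38.4 to 51.0 in EVs, which did not overlap. KLF9 alone gave 2.70 to 7.93 RPKM in MSCs and 6.49 to 22.4 in EVs. KLF genes without reads add nothing to the sum. Of the KLF sum, KLF9 gave 17.3 of 38.4 RPKM in EVs of pig 1, but 2.70 of 30.9 RPKM in MSCs of pig 2. Apart from KLF9, the KLF sums of the 2 groups overlapped, and their difference was not tested. The GATA and RUNX repressors, chosen by name, had sums of 1.38 to 3.18 RPKM in MSCs and 4.65 to 5.69 in EVs, also without overlap. Summed ETS levels overlapped, at 123 to 162 RPKM in MSCs and 121 to 150 in EVs, as did those of nuclear receptors, at 92.5 to 117 and 84.4 to 95.9.

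**Figure D3:**
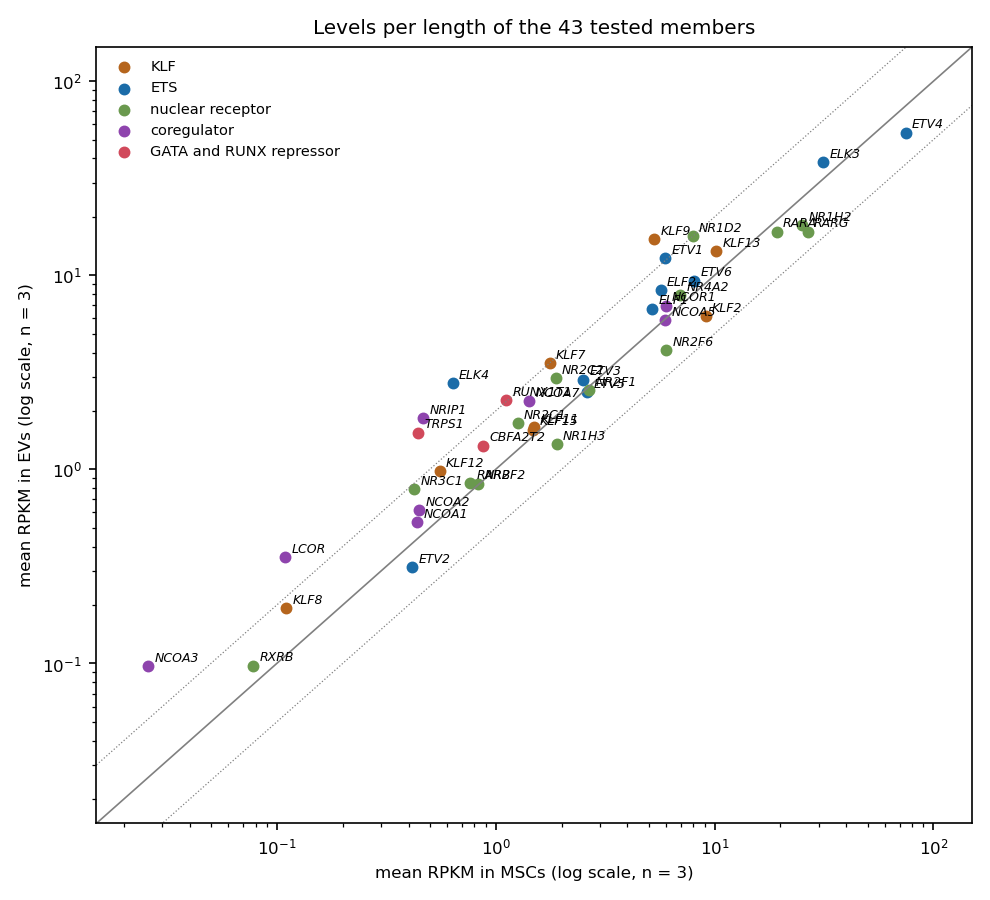
Mean RPKM in EVs (y axis) against MSCs (x axis), both on log scales, of the members tested, coloured by family, with 3 libraries in each mean. The solid line marks equal levels and the dotted lines a 2-fold difference. ETV4 and ELK3 had the highest levels and lie near equality, while ELK4, NRIP1 and TRPS1 lie above the upper dotted line.

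Of the members not tested, 13 had reads but were removed by the filter on low counts, among them KLF4, with 5, 7 and 11 MSC reads against 6, 3 and 3 EV reads, and ETS1, with 3 reads in all 6 libraries together. KLF5, an activator of adipogenesis, had 0, 1 and 2 MSC reads against 5, 11 and 16 EV reads and did not enter the main test, and it passed the study thresholds where the filter was not applied. The remaining members of this kind were ELF3, ETV7, KLF17, NR0B1, NR1H4, NR2E1, NR2E3, NR4A3, NR5A1 and NR6A1, with at most 44 reads each in all 6 libraries together.

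The 15 members listed at 0 reads in every library included ELF4, ELF5, KLF1, KLF3, KLF6, KLF10, KLF14, KLF16, NCOA4, NR0B2, NR1I2, NR1I3, NR5A2 and RXRG. For 14 of them another entry of the table lies over at least 0.9 of the span, and ELF4 lies on a sequence named X. In the whole table, 56.2% of entries with another entry over at least 0.9 of their span were at 0, against 28.8% of entries with no other entry over them. The KLF3 entry is an example, since an unnamed entry (ENSSSCG00000022270) over the same span held 1833 reads. A value of 0 was not read as a level for these genes. Where a member had an entry of its own, a count of 0 allowed up to 3 counts, which is 0.232 to 0.303 CPM.

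Genes that work with the members were taken from 11 lists of relatives, partners, upstream kinases and known targets. By the study thresholds, at most 2 genes of a list were higher and at most 1 was lower, beside 5.55% of all entries tested that were higher and 3.57% that were lower, and by the adjusted threshold of edgeR 0 were called in any list. Of the SP family, the nearest relatives of KLF genes, 1 of 4 tested was higher (SP4, with 15, 8 and 10 MSC reads against 25, 45 and 42 EV reads, a log2 fold change of 1.81, edgeR adjusted p = 0.219), and the list had a median log2 fold change of 0.74. Of nuclear receptors known by other symbols, 1 of 5 was higher. This was RORA, which competes with REV-ERB proteins for the same DNA sites, with MSC reads of 94, 71 and 101 against EV reads of 102, 287 and 467 (log2 fold change 1.79, edgeR adjusted p = 0.249). Its EV values were above its MSC values throughout, but by only 1 read between EVs of pig 1 and MSCs of pig 3 before normalization. Other ETS genes gave 0 of 3, with a median of -0.16, and the list of other nuclear receptors had a median of -0.18.

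Of the partners of coregulators, 1 of 17 tested was higher, KMT2C, a histone H3 lysine 4 methyltransferase of a coactivator complex. It had 222, 52 and 139 MSC reads against 362, 577 and 446 EV reads, without overlap (log2 fold change 1.83, edgeR adjusted p = 0.219). CBFA2T3, the third ETO gene, was higher as 1 of 2 genes tested in the RUNX and GATA list. It had 4, 10 and 4 MSC reads against 19, 73 and 131 EV reads, a log2 fold change of 3.67 (edgeR adjusted p = 0.219, and 0.0438 with pig blocked). All 3 ETO genes had EV libraries above all MSC libraries, as did 14.3% of all entries tested, though CBFA2T2 was under the 2-fold threshold. CBFA2T3 was low in MSCs and passed the filter on low counts only through its EV libraries. RUNX1T1 was chosen by name and is reported by the study as enriched in EVs. The shared direction of these genes was therefore not an independent result.

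Of 10 kinases and cofactors that act on the ternary complex factors, 1 was lower in EVs and 0 were higher. This was SRF itself, the partner of ELK4, with 2101, 1517 and 1540 MSC reads against 862, 954 and 527 EV reads (log2 fold change -1.13, edgeR adjusted p = 0.210, 0.0761 with pig blocked). SRF was lower in EVs of 3 of 3 pigs, while ELK4 was higher in EVs of 3 of 3. Of 9 targets of SRF with ternary complex factors, EGR2 and EGR3 were higher and SRF, which is its own target, was lower. EGR3 had 0, 8 and 4 MSC reads against 11, 85 and 37 EV reads (log2 fold change 3.37, edgeR adjusted p = 0.249, and 0.0408 with pig blocked). It passed the filter on low counts only through its EV libraries, which favours a fold change above 0. EGR2 had 44, 116 and 154 MSC reads against 188, 238 and 529 EV reads, a log2 fold change of 1.67 (edgeR adjusted p = 0.278).

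Of 5 LXR targets tested, 1 was higher, ABCA1, the cholesterol efflux transporter, with 41, 27 and 63 MSC reads against 269, 1195 and 442 EV reads, a log2 fold change of 3.85 (edgeR adjusted p = 0.161, and 0.0153 with pig blocked), whereas the median of the list was -0.30. Of 5 targets of the REV-ERB repressors, 1 was lower, NPAS2, a partner of the clock factor BMAL1. It had 4406, 2047 and 2904 MSC reads against 1561, 990 and 1670 EV reads (log2 fold change -1.05, edgeR adjusted p = 0.259), and the list had a median of 0.29. Of 4 glucocorticoid receptor targets, KLF9 was the only one higher, with a list median of 0.26, and of 6 retinoic acid receptor targets 0 were higher or lower, with a median of 0.02.

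**Figure D4:**
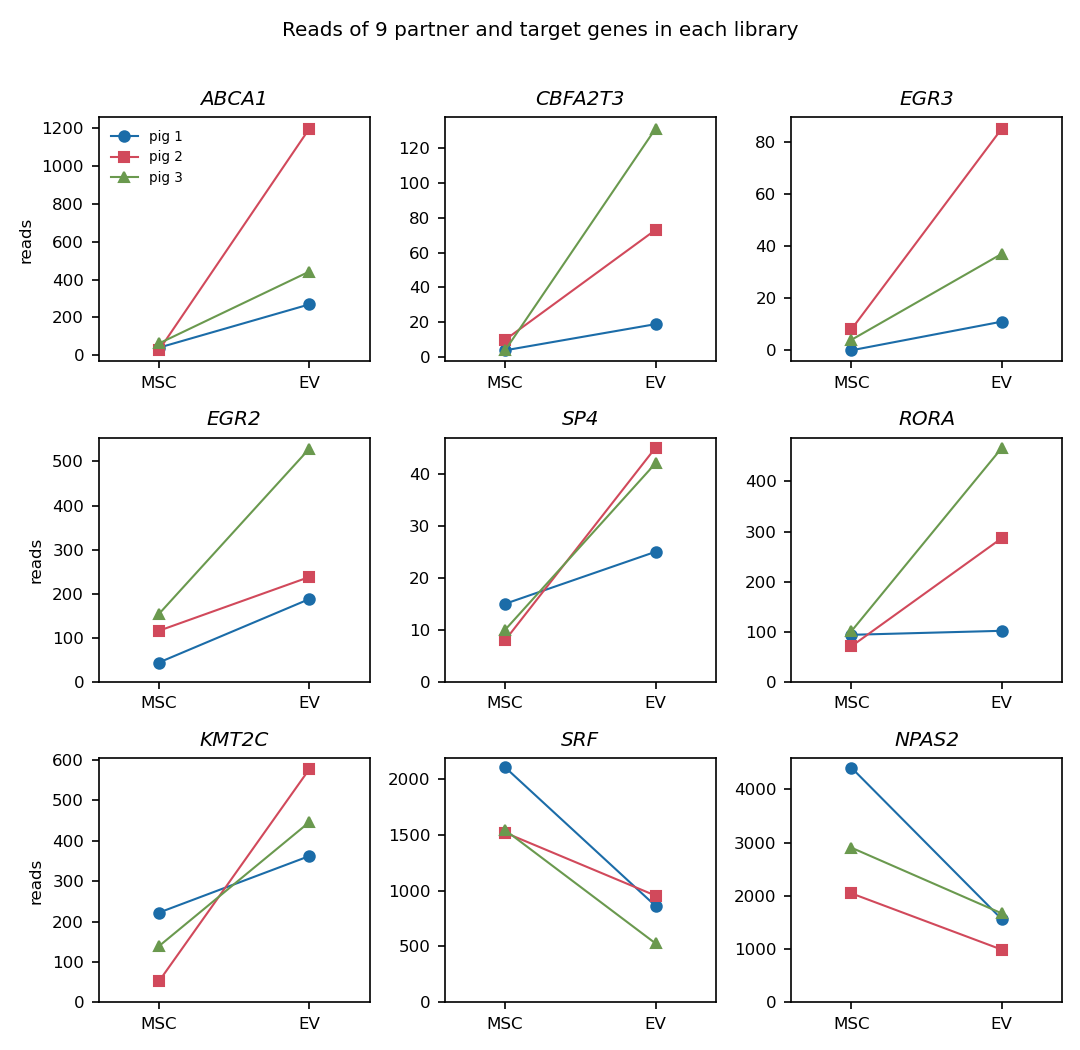
Reads (y axis, linear, not normalized) of 9 partner and target genes in each library, with MSCs and EVs of the same pig joined by a line. ABCA1, CBFA2T3, EGR3, EGR2, SP4, RORA and KMT2C had more reads in EVs of every pig, and SRF and NPAS2 had fewer.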

How the data were processed

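The members and gene lists were chosen with earlier results of these data known. Messenger RNA libraries of MSCs and EVs of 3 pigs were used, and the 6 small RNA libraries were not used here. The authors aligned the reads with TopHat and counted them on gene entries, and the deposited table held raw read counts and RPKM for 29661 entries. The study's methods name featureCounts and the submitters' processing notes name HTSeq and the susScr3 build, and the strand setting is not given in the sources used here. The 3 entries shifted by a column were left out, and 11804 of 25322 Ensembl identifiers were matched to a symbol.

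Counts were tested with edgeR 4.0.16 in R 4.3.3 (TMM, filterByExpr, quasi-likelihood test, Benjamini-Hochberg adjustment over 12392 entries). The deposited RPKM were used for levels between genes and, with limma 3.58.1 and pseudocounts of 1 and 0.1, as alternatives. DESeq2 1.42.0, other scaling factors and filters, the pig as a block, removal of the length trend, omission of overlapping entries and of each library were the other alternatives. The libraries of a group come from separate pigs. Pairing comes from the pig in the labels. Deviations from the group means correlated at 0.264, 0.386 and 0.413 in libraries of the same pig and at -0.359 to -0.0462 in different pigs. The deviations of a group cancel out within each entry. Negative values in different pigs are therefore partly forced by positive ones in the same pig and are not a separate check.

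Genes named were those the study names, in each family up to 4 per direction past the study thresholds (otherwise the largest change), the 2 with the highest mean RPKM, any past the adjusted threshold in edgeR, with the block or in DESeq2, and of each list up to 2 per direction. Members outside this rule (ELF2, ETV5, ETV6, KLF4, KLF5, KLF8, KLF11, KLF12, KLF15, NR1H3, NR2C1, NR2C2, NR2F6, NR3C1, RARA, RARB, LCOR, NCOA2, NCOA3 and those not tested) were described after their values were seen. On simulated data, edgeR recovered 29.5% of 200 entries changed 4-fold and 96.5% changed 16-fold, with 1 and 6 false calls. With the pig block, it recovered 8.0% and 95.5%, with 1 and 8 false calls, and DESeq2 recovered 71.5% and 97.5%, with 31 and 42 false calls. The simulated libraries were drawn independently with no pig effect. The recovery with the pig block therefore does not show what blocking does in these data. For a single member, the exact permutation test on 3 libraries against 3 cannot give a p-value under 0.1. Intervals and floors cover counting error only. For 1 member, no values are reported here.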

Additional observations from a re-analysis of the deposited data

How the results depend on the processing

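The number of members higher by a fold over 2 with an unadjusted p-value was 7 and fell to 2 with limma on log2(RPKM + 1) and to 4 with the length trend removed, and it ranged from 4 to 9 when each library was left out, with 4 without EV library 3. The number lower ranged from 0 to 1, with KLF2 without EV library 3, beside 607 of 12785 entries in that fit. By the adjusted threshold, the 0 members higher in edgeR became 6 with DESeq2, 1 with the pig as a replicate block and 3 (ELK4, NRIP1 and TRPS1) with the block and the length trend removed. Of all 12392 entries, 0 were higher in edgeR by this threshold, and 253, 61 and 77 in the other fits, in the same order. ELK4 and KLF9 were higher by the unadjusted thresholds in all 18 alternatives, and NRIP1 and TRPS1 in all but limma on log2(RPKM + 1).

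The median log2 fold change of nuclear receptors, 0.06, was 0.16 with no filter, -0.0738 with the length trend removed, -0.0434 without entries that share 0.9 of their span, and 0.00317 to 0.20 when each library was left out. That of ETS genes, 0.25, was 0.0887 with the length trend removed and 0.0276 with the block as well. That of coregulators, 0.58, was 1.25 without overlapping entries, and that of KLF genes was 0.50 to 1.08 when each library was left out, with 1.08 without MSC library 1. Omission of overlapping entries took out 4 of the 8 coregulators and 5 of the 14 nuclear receptors tested, so those medians are over fewer genes. The other 168 values that answer a comparison were counted as not moved. For the medians, this was judged against the SD of the medians by pig. The counts of members called have no spread and were compared without one.

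Of the 17 named members, signs turned for NCOR1 (-0.13 with the length trend removed, -0.12 with the block as well), NCOA5 (-0.18 to 0.16 when each library was left out, 0.16 without MSC library 2) and ELK3 (-0.10 to 0.51, -0.10 without EV library 3), none of them called. ETV1, KLF7 and NR1D2, with folds close to 2, lost the 2-fold threshold or the p-value in 7 or 8 alternatives each. For KLF7 these include the fit without overlapping entries, which left its entry out. With the pig as a block, 9 members passed the unadjusted thresholds, LCOR and RUNX1T1 besides the 7, and 8.01% of all entries did. The block fit and the fits with fewer libraries use fewer degrees of freedom. The cause of these changes was not tested. The 13 members with reads that were filtered out had 3 to 44 reads in all, and 6 of them have another entry over at least 0.9 of their span.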
